A study of Mus musculus with 5 samples.

Results

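The genes described here encode the collagens, proteoglycans, elastic fibre proteins and cross-linking enzymes of the connective tissue matrix. They form a list of 46 genes, and each was found by its symbol among the probe sets of the array. Of these, 44 had at least 1 probe set that carried their symbol alone, out of 18193 genes on the array, and they were covered by 100 probe sets. Loxl2, whose probe sets carry several symbols, and Fbn1 were not analysed here. The value of a gene is that of its brightest probe set over the 5 arrays, and its other probe sets serve as a check.

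Fibril-forming collagens are made as precursor chains that wind into a triple helix, are trimmed outside the cell and then assemble into fibrils. Other collagens coat or link those fibrils, or form the sheet of the basement membrane, and small leucine-rich proteoglycans set the width and spacing of fibrils. Lysyl oxidases cross-link collagen and elastin. In a limb bud much of this matrix is laid down by the loose mesenchyme, before and beside the cartilage condensations. The list also holds collagens of cartilage and genes of basement membranes.

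The RNA is that of mouse forelimb buds taken at E11.5, while digits are being patterned, and all 5 samples are labelled with the C57Bl/6 background. The 2 double mutant arrays are from embryos with the genotype Sost-/-; Sostdc1-/-, which lack the Wnt antagonist sclerostin and the Wnt and BMP antagonist encoded by Sostdc1. The other 3 arrays are from wild-type embryos. Each sample is described as unpooled, and the arrays were compared as separate samples. The single comparison of the design is between the genotypes.

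Each targeted gene was lower in both mutant arrays on the probe set read here, with Sost at 4.16 and 4.43 against 6.19 to 6.75 and Sostdc1 at 6.28 and 7.35 against 8.94 to 9.42 (log2 intensity). The mutant arrays nevertheless stood apart from their labels and from the wild type in ways that concern every result below. Xist, which only cells with an inactive X chromosome make, was at 12.37 and 11.75 in the mutant arrays while the Y-linked Eif2s3y was at 8.36 in both, a combination absent from each of the 3 wild type arrays. These values go against 1 embryo per array for the mutants, so a mutant array may hold RNA of more than 1 embryo, and the spread between these arrays may not be that between single embryos. The poly-A spike-in Dap stood at 6.90 and 7.28 in mutant arrays and 3.23 to 3.36 in wild type, and the 3' minus 5' difference of Gapdh at 0.27 and 0.16 against -0.14 to -0.06. That of Actb overlapped, at 0.65 and 0.56 against 0.20 to 0.68. Preparation and genotype therefore cannot be told apart. In whole limb buds fewer cells of a type and less RNA per cell cannot be told apart either.

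Most matrix genes had a negative difference, and the extent depended on which mutant array was read. By the brightest probe set 38 of 44 members were lower in the mean of the double mutants, with a median difference of -0.34 (double mutant minus wild type, log2) against -0.02 over all genes. Lower calls at an adjusted p under 0.05 (limma, adjusted over all 45037 probe sets) were made for 7 members: the collagen genes Col5a2 and Col12a1, the microfibril and fibulin genes Mfap2, Mfap4 and Fbln1, the cross-linking enzyme gene Loxl1 and the basement membrane gene Nid2. That is 7 of 44, where 8.14% of all genes were called lower. Col27a1 was the single member called higher, where 6.56% of all genes were called higher. All members but Col5a3 and Mfap5 lay above 5.41, the median level on the array. Of the 11537 genes above it 1322 were called lower and 1098 higher, larger shares than over all genes. An unadjusted p under 0.05 was reached by 14 of the 44 members, a similar share to the 5214 of all 18193 genes. Among the 11537 genes 4516 reached it, a larger share than that of the members. Besides the 7 lower calls and the 1 higher call, 36 members were not called. These calls rest on few arrays: removing double mutant replicate 1 left 0 members called by limma and 0 probe sets on the whole array (25 members at an unadjusted p under 0.05), and removing wild type replicate 2 did the same (9 members). Of the members, 4 were called lower without double mutant replicate 2, 3 without wild type replicate 1 and 4 without wild type replicate 3.

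**Figure D1:**
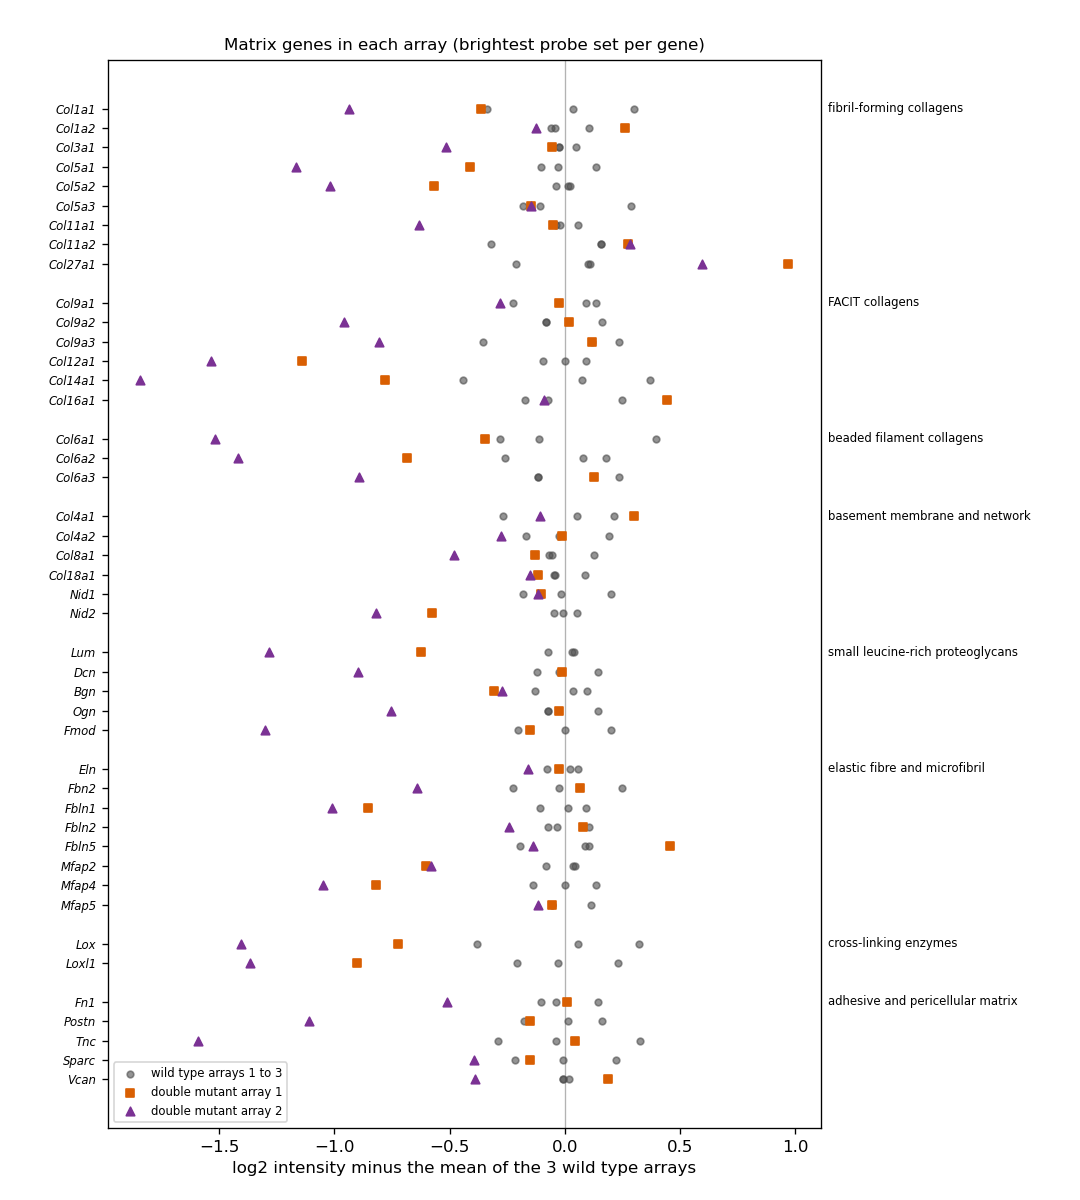
Log2 intensity of 44 matrix genes in each of the 5 arrays, as the difference from the mean of the 3 wild type arrays (horizontal axis), 1 row per gene and grouped by role. Circles are wild type arrays, squares double mutant array 1 and triangles double mutant array 2; triangles lie left of squares for 40 of 44 genes, and 37 triangles but 19 squares lie left of every wild type circle.

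The 2 double mutant arrays gave different pictures of the same gene list. Of the 44 members, 40 were lower in replicate 2 than in replicate 1, against 44.9% of all genes. The median gap was -0.46 on the log2 scale, where the median over all genes was 0. Among genes above the median level 53.5% were lower in replicate 2, with a median gap of -0.02. Replicate 2 was below every wild type array for 37 members, within their range for 5 and above it for 2. Replicate 1 was below for 19, within for 18 and above for 7, and over all genes 35.7% lay below in replicate 1 and 35.1% in replicate 2. For genes above the median level these shares were 36.4% and 40.3%. The median member stood at -0.080 from the wild type mean in replicate 1 and at -0.64 in replicate 2. The median shift of the list was thus mostly that of 1 array. The 7 called members were low in both, but a call itself favours genes whose mutant arrays lie close together.

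Tenascin C shows the gap at its widest. Tnc, a large adhesion-modulating glycoprotein of developing connective tissue, had log2 intensities of 9.05 and 7.41 in double mutants and 8.72, 8.97 and 9.34 in wild type. Replicate 1 lay inside the wild type range and replicate 2 far below it (difference -0.78 ± 0.55 SE, adjusted p = 0.39). Col6a1 (7.91 and 6.74), Fmod (8.54 and 7.39), Col14a1 (6.46 and 5.40) and Col6a3 (9.22 and 8.20) also differed by more than 1 log2 unit between the mutant arrays. At the other end Mfap2, Bgn, Nid1, Col18a1, Col5a3 and Col11a2 were at most 0.04 apart. The wild type arrays differed among themselves too: replicate 3 was above replicate 1 for 36 of 44 members (59.2% of all genes), by a median of 0.23 against 0.04 over all genes.

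**Figure D2:**
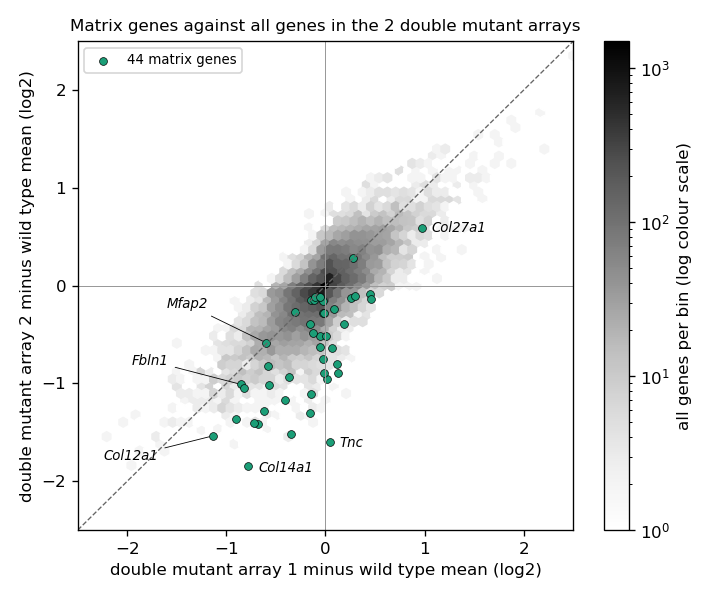
Difference from the wild type mean in double mutant array 1 (horizontal) and array 2 (vertical), log2, for 44 matrix genes (points) over all 18193 genes (grey hexagons, with 40 genes beyond the axes at 2.5 not drawn). On the dashed line both mutant arrays have equal values; 40 of 44 matrix genes lie below it, with medians of -0.080 on the horizontal and -0.64 on the vertical axis.

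Groups that do not overlap give a view that needs no variance model. Both mutant arrays lay below all 3 wild type arrays for 19 members, where 23.0% of all genes did so, and above them for 2 members, where 20.2% of all genes did so. Of the 11537 genes above the median level, 3214 lay below and 3257 above. The 19 lower members are the 7 called ones with Col1a1, Col3a1, Col5a1, Col11a1, Col14a1, Col6a1, Col6a2, Col8a1, Col18a1, Lum, Bgn and Lox. The 2 higher ones are Col27a1 and Col11a2. For Col3a1 and Col11a1 the separation was thin in replicate 1, at 13.07 against a lowest wild type value of 13.10 and at 9.58 against 9.60.

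Among the 9 fibril-forming collagens 1 fell, 1 rose and 7 were not called, where 8.14% of all genes were called lower and 6.56% higher. The role groups are small, and whether calls gather in a role was not tested. Col1a1, the major chain of type I collagen, had log2 intensities of 8.90 and 8.33 in double mutants and 8.93, 9.30 and 9.57 in wild type. Its difference was -0.65 ± 0.27 (SE, adjusted p = 0.20), and replicate 1 sat just under the lowest wild type array. Col3a1, the type III chain of pliable embryonic connective tissue, stood at 13.07 and 12.61 against 13.10, 13.10 and 13.18 (difference -0.29 ± 0.15, adjusted p = 0.29). Both markers of matrix-producing mesenchyme exceeded 5.41, the middle level on the array, in all 5 samples, and so did the third marker, Lum, given below.

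Col5a2 encodes a chain of type V collagen, which nucleates fibrils and limits their width, and it fell. Its values were 10.89 and 10.44 in double mutants and 11.42, 11.48 and 11.47 in wild type. The genotypes differed by -0.80 ± 0.15 (SE, 1.74-fold lower, adjusted p = 0.034). Its second probe set was also called lower (-0.96 ± 0.18, adjusted p = 0.035). Col5a1, the partner chain, had a difference of nearly the same size (-0.79 ± 0.25) with 9.51 and 8.76 against 9.82, 9.89 and 10.06, and it was not called on that probe set (adjusted p = 0.11). Wild type arrays of Col5a2 were tight, with an SD of 0.03, whereas the mutant arrays of both genes were spread. Col5a3 was dim throughout (3.84 in both mutant arrays).

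Col27a1, a fibrillar collagen of cartilage, rose. Its values were 8.87 and 8.50 in double mutants and 8.01, 7.69 and 8.005 in wild type, and the genotypes differed by 0.78 ± 0.17 (SE, adjusted p = 0.047). All mutant values lay above all wild type values, though its second probe set was not called (0.47 ± 0.28, adjusted p = 0.33), and the call was lost with any 1 array left out. Col11a1 and Col11a2, chains of the cartilage fibril, stood at -0.34 and 0.28 and were not called. Col1a2, the second chain of type I collagen, had 13.11 and 12.73 against 12.96, 12.79 and 12.81, so the mutant arrays lay on either side of the wild type (0.07 ± 0.14, adjusted p = 0.77).

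FACIT collagens lie on the surface of fibrils and link them to their surroundings. Of 6 members 1 fell, 0 rose and 5 were not called, where 8.14% of all genes were called lower and 6.56% higher. Col12a1, found in tendon, fascia and perichondrium, had 6.92 and 6.52 in double mutants against 8.15, 7.96 and 8.06 in wild type. This was the largest difference of any member on its brightest probe set (-1.34 ± 0.14 SE, 2.53-fold lower, adjusted p = 0.012). A second Col12a1 probe set fell too (-1.64 ± 0.15, adjusted p = 0.0093), while 2 dim ones stood at -0.06 and 0.05 and were not called. Col14a1, a related collagen of fibril surfaces, had a difference of similar size (-1.31 ± 0.42) and a wide spread (6.46 and 5.40 against 6.80, 7.32 and 7.61, adjusted p = 0.11). The 3 chains of cartilage type IX collagen had differences from -0.47 to -0.15, with replicate 2 under every wild type array for each, and Col16a1 stood at 0.18. A second Col9a1 probe set was called lower, at 9.35 and 9.23 against 10.22, 10.46 and 10.17 (-0.99 ± 0.11, adjusted p = 0.012). The other Col9a3 probe sets were not called, at -0.45 and -0.04.

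The beaded filaments of type VI collagen surround cells and anchor them to the interstitial matrix. Of their 3 genes 0 were called, with 1 at an unadjusted p under 0.05, as were 5214 of all 18193 genes. Col6a2 stood at 8.82 and 8.09 against 9.25, 9.59 and 9.68 (-1.05 ± 0.27, adjusted p = 0.071). Col6a1 had -0.93 ± 0.43 and Col6a3 -0.38 ± 0.34. As a group they had the lowest median of any role in replicate 2, at -1.42, beside -0.35 in replicate 1.

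In the basement membrane and network group 1 of 6 members fell, where 8.14% of all genes were called lower. Nid2, which bridges laminin and type IV collagen, had 8.69 and 8.45 in double mutants and 9.26, 9.22 and 9.32 in wild type (-0.70 ± 0.09 SE, adjusted p = 0.016). The groups were clearly separated. Its paralogue Nid1 stood at 9.88 and 9.87 within the wild type values of 9.80, 9.97 and 10.18 (adjusted p = 0.59). Col4a1 and Col4a2, the main chains of the basement membrane network, had differences of 0.10 and -0.14 with adjusted p of 0.77 and 0.54. A second Col4a1 probe set was called lower, at 8.54 and 8.36 against 9.43, 9.64 and 9.70 (-1.14 ± 0.11, adjusted p = 0.010). The paired genes Col4a1 and Col4a2 are transcribed away from each other, and their RefSeq promoter windows share 78 of 300 bases. Col18a1, whose product gives rise to endostatin, and Col8a1 had -0.13 and -0.30.

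Small leucine-rich proteoglycans gave 0 calls among 5 members, with 2 at an unadjusted p under 0.05, and all 5 were below the wild type range in replicate 2. Over all genes 5214 of 18193 reached that p, and 35.1% were below the range in replicate 2 (40.3% of genes above the median level). Lum, which encodes lumican, a keratan sulfate proteoglycan that regulates fibril assembly, was at 11.02 and 10.36 in double mutants and 11.57, 11.68 and 11.67 in wild type. Its difference of -0.95 ± 0.21 (SE, 1.94-fold lower) had an adjusted p of 0.051, just outside the threshold, although the groups did not overlap. It was called under 5 of 11 other settings. Bgn, biglycan, differed little between mutant arrays (8.81 and 8.85 against 8.99, 9.15 and 9.21, adjusted p = 0.093). For Dcn, Ogn and Fmod replicate 1 lay within the wild type range.

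The elastic fibre and microfibril group held 3 of the 7 falls, among 8 measured members, and 0 rose. Over all genes 8.14% were called lower and 6.56% higher, and whether falls gather in this small group was not tested. Mfap2, which encodes a small glycoprotein bound to fibrillin microfibrils, had 11.51 and 11.54 in double mutants and 12.04, 12.16 and 12.15 in wild type (-0.59 ± 0.06 SE, 1.51-fold lower, adjusted p = 0.011). Mfap4, which encodes a microfibril-associated protein that binds elastin and collagen, had 9.78 and 9.54 against 10.46, 10.60 and 10.73 (-0.93 ± 0.12, adjusted p = 0.015). Fbln1, a calcium-binding glycoprotein of elastic fibres and basement membranes, had 10.64 and 10.48 against 11.38, 11.59 and 11.504 (-0.93 ± 0.09, adjusted p = 0.0096). In all of these genes the mutant arrays lay close together, and the difference between genotypes was larger than the range within either group. The other probe sets of Mfap2 and Fbln1 were not called, at -0.05 for Mfap2 and at -0.17 and 0.09 for Fbln1. Eln, elastin itself, stood at -0.09, Fbln2 at -0.08, Fbln5 at 0.16 and Fbn2, the embryonic fibrillin, at -0.29. Mfap5 was dim in all arrays.

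Both measured cross-linking enzyme genes had groups that did not overlap, with the double mutants lower, where 23.0% of all genes did so. Loxl1, which acts on elastin, had 7.96 and 7.50 in double mutants against 8.66, 8.84 and 9.10 in wild type (-1.13 ± 0.20 SE, 2.19-fold lower, adjusted p = 0.032). Lox, the main lysyl oxidase of collagen, had 8.15 and 7.47 against 8.49, 8.93 and 9.20 (-1.06 ± 0.31, adjusted p = 0.092). A second Lox probe set was called at -2.23 ± 0.18 (adjusted p = 0.0081), and a second Loxl1 probe set stood at -0.02.

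Adhesive and pericellular genes gave 0 calls among 5 members on the brightest probe set, and 0 reached an unadjusted p under 0.05. Fn1, fibronectin, had 11.63 and 11.11 against 11.52, 11.58 and 11.77. Postn, periostin, had 9.22 and 8.26 against 9.53, 9.19 and 9.38. Vcan, the hyaluronan-binding proteoglycan versican, had 12.30 and 11.73 against 12.11, 12.13 and 12.11. In each, replicate 1 lay within or above the wild type values and replicate 2 below them, as it did for Tnc and Sparc.

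The other probe sets moved some members further than the brightest one did. Over all 100 probe sets of the members 18 were called lower (9.52% of all probe sets on the array were) and 2 higher (8.70% were), and the lower calls fell on 16 genes. Of the 56 probe sets other than the brightest, 11 were lower and 1 higher. For 9 genes the lower call was made on another probe set only: Col1a1, Col5a1, Col9a1, Col4a1, Col8a1, Nid1, Ogn, Lox and Sparc. No member had calls in opposite directions.

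Ogn, which encodes the proteoglycan osteoglycin, shows how far probe sets of a gene can part. On the brightest it stood at 9.03 and 8.30 in double mutants and 8.98, 8.98 and 9.20 in wild type (-0.39 ± 0.24 SE). On the other it stood at 7.39 and 6.88 against 9.59, 9.76 and 9.47 (-2.47 ± 0.19, adjusted p = 0.0074). The mutant arrays overlap the wild type on the first and lie far below it on the second. Col1a1 parted likewise, with 7.89 and 7.65 against 9.53, 9.68 and 9.91 on its other probe set (-1.93 ± 0.15, adjusted p = 0.0073). Nid1 had 5.72 and 5.52 against 8.03, 7.55 and 7.21 on its second probe set (-1.98 ± 0.27, adjusted p = 0.017). For Ogn, Col1a1 and Sparc the brightest probe set is another one if only wild type arrays are averaged, and 10 members are then called lower, where the same choice calls 8.95% of all genes lower.

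Fn1 went the other way. Its second probe set was called higher, with 8.69 and 8.21 in double mutants and 6.59, 6.39 and 5.13 in wild type (2.42 ± 0.52 SE, adjusted p = 0.046). Wild type replicate 3 was the lowest there. A dim Col1a2 probe set was higher without a call, at 7.04 and 5.81 against 4.49, 4.77 and 4.81 (1.73 ± 0.40, adjusted p = 0.055). The remaining Col1a2 probe set stood at -0.56. A dim Tnc probe set was also higher without a call, at 4.80 and 3.76 against 3.34, 3.26 and 2.96 (1.09 ± 0.35, adjusted p = 0.11). Such splits leave the size of a change of these transcripts uncertain, and for some its direction. Where the probes lie along each transcript was not known here, the 3' minus 5' difference separated the groups for Gapdh and not for Actb, as given above, and its part in these splits was not tested.

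**Figure D3:**
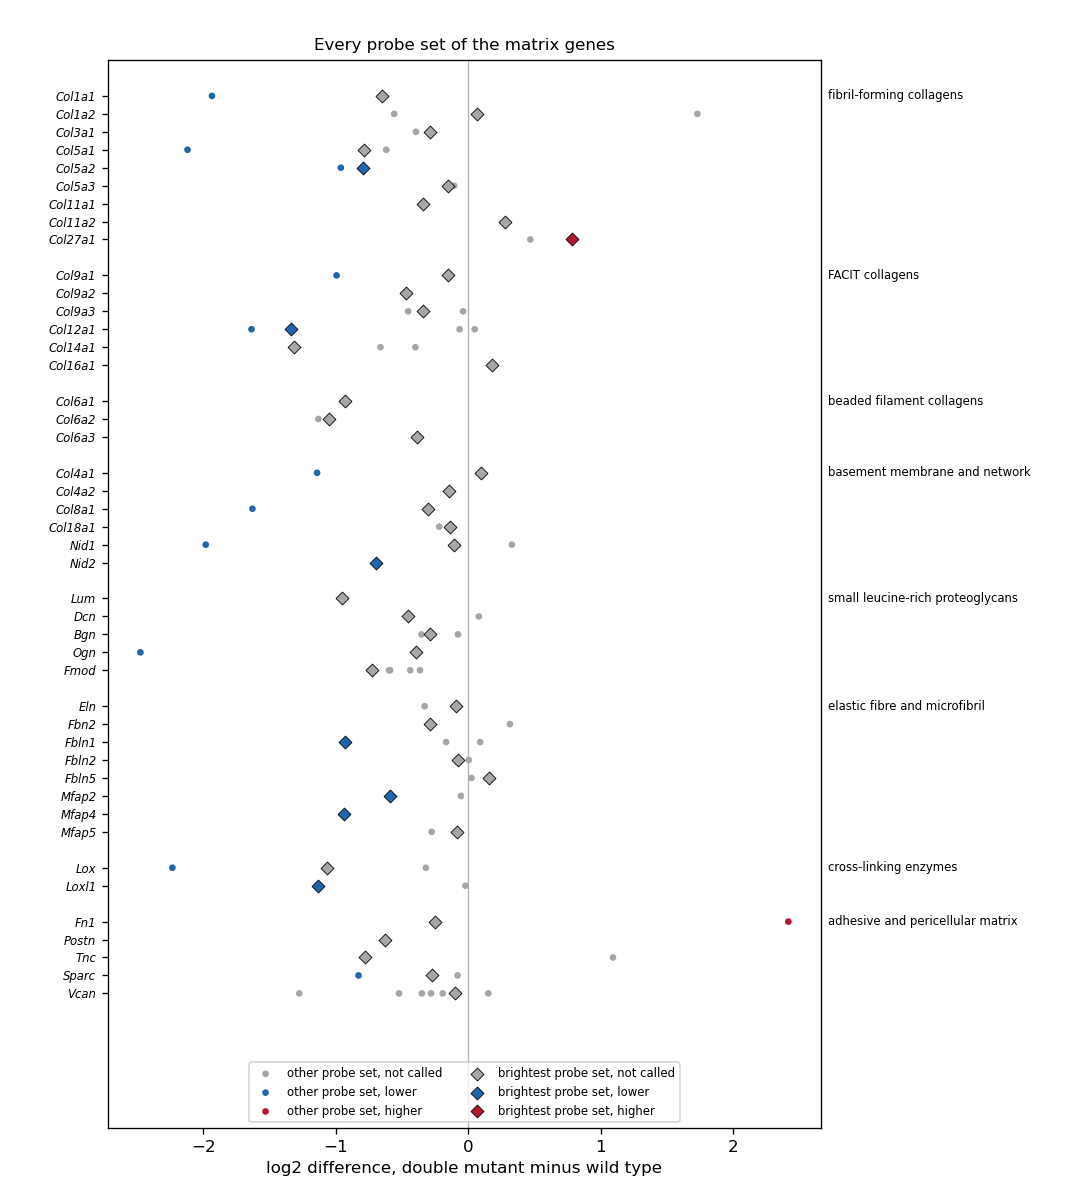
Log2 difference, double mutant minus wild type (horizontal axis), of all 100 probe sets of the 44 matrix genes, 1 row per gene. Diamonds are the brightest probe set of a gene and circles the others; blue marks the 18 probe sets called lower, red the 2 called higher and grey those not called, and the blue circles of Ogn (-2.47), Lox (-2.23) and Col5a1 (-2.12) lie far left of their diamonds.

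Genes that process collagen and assemble matrix, outside the list itself, were read in the same way. Of 64 measured genes 16 were called lower and 1 higher, where 8.14% and 6.56% of all genes were, and their median difference was -0.23. Mutant replicate 2 was below replicate 1 for 53 of them, against 44.9% of all genes and 53.5% of genes above the median level. The lowest was Itga5, the fibronectin receptor subunit, at 5.94 and 5.82 against 7.27, 7.58 and 7.72 (-1.65 ± 0.15 SE, adjusted p = 0.0093). Itgb1, the common beta subunit of the collagen and fibronectin receptors, was also called lower, at 9.59 and 9.60 against 10.76, 10.86 and 10.55 (-1.13 ± 0.11, adjusted p = 0.0094). The mutant arrays lay close together in both receptor genes, below all wild type arrays.

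Genes for enzymes that modify collagen chains inside the cell gave a mixed picture. In prolyl 3-hydroxylation P3h1, its partner Crtap and P3h2 were called lower, at -0.97, -0.46 and -0.43, while P3h3, P3h4 and Ppib stood at 0.22, 0.26 and 0.10 and were not called. Of the lysyl hydroxylase genes Plod1 and Plod3 were called lower, at -0.45 and -0.55, and Plod2 stood at -0.24 without a call. Colgalt1, which adds galactose to hydroxylysine, was called lower at -0.52, and so was Pcolce, an enhancer of propeptide cleavage outside the cell, at -0.39. Among prolyl 4-hydroxylase subunits P4ha2 stood at 0.01 and P4ha3 at -0.56 without a call, and P4ha1 was the gene called higher, at 9.79 and 9.65 against 9.17, 9.18 and 9.09 (0.57 ± 0.07 SE, adjusted p = 0.014). Serpinh1, the collagen chaperone, had -0.36 with an adjusted p of 0.057. Removing double mutant replicate 1 or wild type replicate 2 ended these calls as it ended all calls on the array, and 4 to 6 genes were called lower after removal of any other array.

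Markers of the cell types that a limb bud holds are given beside these values. Of 8 cartilage markers 7 were lower in replicate 2 than in replicate 1, with medians of -0.25 and -0.99 from the wild type mean in replicates 1 and 2, and Col2a1 stood at 11.05 and 10.29 against 11.09, 11.52 and 11.76. Limma called 0 of the 8, with 3 at an unadjusted p under 0.05. Their summed linear intensity was 4564 and 3009 in mutant arrays and 5170 to 6753 in wild type. Hapln1 went the other way, at 7.44 and 7.67 against 7.09, 7.21 and 7.21 (0.39 ± 0.09 SE, adjusted p = 0.060). It alone among the 8 cartilage markers was above every wild type array in both mutant arrays, and replicate 2 was the higher. Of 8 surface ectoderm markers 4 were called higher, where 6.56% of all genes were. Their medians were 0.62 and 0.63, and their summed intensity was 5626 and 5445 against 3710 to 4166. Krt5 alone among these 8 was lower in both mutant arrays, at -0.38. By their medians ectoderm markers stood alike in the mutant arrays, and cartilage markers, like the matrix genes, were lower in replicate 2. Single ectoderm genes parted in both directions, and 4 of the 8 were lower in replicate 2. Replicate 2 minus replicate 1 was 0.64 for Cdh1 and -0.54 for Krt14.

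General limb mesenchyme markers moved little. Prrx1, Prrx2, Msx1, Pdgfra and Twist1 were not called, Twist2 was called lower at -0.53, and the medians of the 6 were -0.06 and -0.14 in replicates 1 and 2. Summed intensity of this list was 15784 and 14674 against 15430 to 16579. Endothelial markers had medians of 0.06 and -0.19, with 3 of 7 called lower and 6 of 7 differences negative. Erythroid markers had -0.51 and -0.39, with 2 of 5 called lower and all 5 negative. Myogenic markers had -0.04 and -0.28, with 1 of 6 called lower and 4 negative. Over all genes 8.14% were called lower and 54.3% had a negative difference. Macrophage and leukocyte markers had -0.26 and -0.45 with 0 of 6 called by limma and 3 at an unadjusted p under 0.05. Neural crest and Schwann precursor markers had 0.00 and -0.18, with 0 of 3 called by limma and 0 at an unadjusted p under 0.05. The part of any of these cell types in the matrix differences was not tested.

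**Figure D4:**
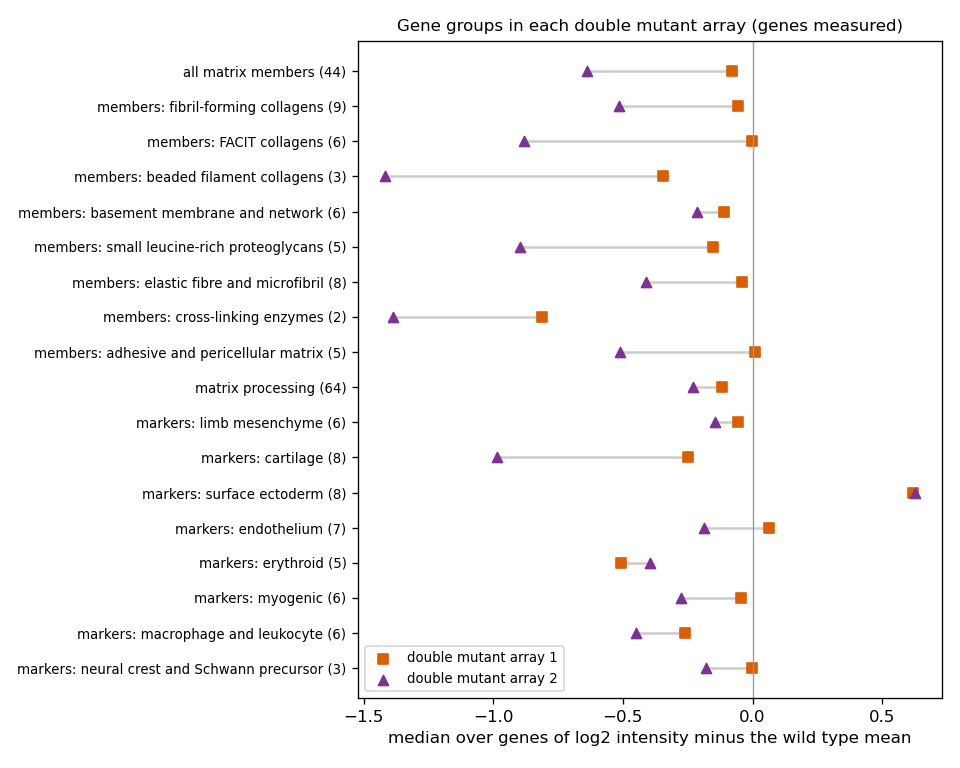
Median over the genes of each group of the log2 intensity minus the wild type mean (horizontal axis), in double mutant array 1 (squares) and array 2 (triangles), with the number of genes measured in brackets. The gap between the medians of the 2 arrays is wide for cartilage markers (-0.25 and -0.99) and beaded filament collagens (-0.35 and -1.42). It is narrow for the basement membrane and network group (-0.11 and -0.21) and nearly absent for surface ectoderm markers (0.62 and 0.63), whose single genes part in both directions.

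Promoter sequence is given for context. Of the 46 listed genes 30 had a RefSeq promoter window, which runs from 250 bases before to 50 bases after a start site on GRCm38.p6. The 250 bases upstream are shown for the called members with a window, Mfap2 and Fbln1, which fell, and Col27a1, which rose. Capitals mark each GC box, the letters GGGCGG on either strand. Where a gene has several windows, the one with a GC box upstream of the start is shown.
Mfap2, chr4:141010431-141010680, plus strand: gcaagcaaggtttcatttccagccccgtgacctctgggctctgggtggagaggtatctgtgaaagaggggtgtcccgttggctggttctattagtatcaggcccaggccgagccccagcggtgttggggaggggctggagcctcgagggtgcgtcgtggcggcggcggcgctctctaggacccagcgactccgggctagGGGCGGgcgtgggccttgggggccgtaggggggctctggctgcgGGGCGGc
Fbln1, chr15:85205758-85206007, plus strand: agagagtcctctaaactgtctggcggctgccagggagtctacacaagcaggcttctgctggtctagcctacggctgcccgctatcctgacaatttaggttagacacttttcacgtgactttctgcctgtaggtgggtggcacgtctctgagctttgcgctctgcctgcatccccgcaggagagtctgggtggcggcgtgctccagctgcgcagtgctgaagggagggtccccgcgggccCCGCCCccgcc
Col27a1, chr4:63215162-63215411, plus strand: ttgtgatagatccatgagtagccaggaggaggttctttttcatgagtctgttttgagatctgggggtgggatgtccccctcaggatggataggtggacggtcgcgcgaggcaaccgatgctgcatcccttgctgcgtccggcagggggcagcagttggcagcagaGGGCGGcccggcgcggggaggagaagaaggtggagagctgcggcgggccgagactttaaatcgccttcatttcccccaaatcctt

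The share of G and C was 68.8% for Mfap2, 62.4% for Fbln1 and 59.6% for Col27a1, in stretches that were chosen for holding a GC box. A GC box was present in a window of 22 of the 30 members (73.3%), against 57.3% of the 14452 genes on the array that had a window. By window the shares were 63.2% of 38 for members and 35.7% of all 32851, which were not limited to genes on the array. The CCAAT box, in either strand, was found in 36.8% of member windows against 37.4% of all, and the TATAAA box in 15.8% against 13.6%. The sequence CTTTGAT, a core of sites for the TCF/LEF factors of the Wnt pathway, was in 1 member window, that of Col9a2 (2.63% of windows, 3.73% of all). GACCACCCA, the consensus of the Gli factors, was in 0 of 38 member windows and 0.253% of all windows. By gene CTTTGAT was in 3.33% of members and 3.46% of genes on the array with a window, and GACCACCCA in 0% and 0.235%. Such matches describe the letters in these windows alone.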

How the data were processed

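Forelimb RNA of 2 double mutant and 3 wild type samples was labelled with biotin in 2 rounds of amplification and hybridised to single-channel Affymetrix arrays, per the labels' protocols. The deposited values are linear intensities. RMA and limma are the tools in the submitters' processing notes, which give no version, role or order. Settings are not given in the sources used here. Median intensities were 39.4 to 44.4.

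Log2 was taken with no further normalization. Of 45101 probe sets, 64 controls were left out. The remainder carried 1 symbol (34945), several (932) or none (9160). The genotype contrast used limma (version 3.58.1, R version 4.3.3), 1 mean per genotype and Benjamini-Hochberg adjustment over all 45037 probe sets. Tests were two-sided. "Dim" means under 5.41, the median of all mean levels. The fit was checked on simulated data. With 5 arrays, their number limits the precision.

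The members and lists were chosen with earlier results of these data known. The naming rule covered the markers Col1a1, Col3a1 and Lum, each member called on its brightest probe set and any with calls in opposite directions. Other genes were named after their values were seen. Motifs were chosen after the data were seen. Of 69 matrix processing genes 64 were measured.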

Additional observations from a re-analysis of the deposited data

How the results depend on the processing

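The median difference of the members kept its sign under all 14 other settings and was -0.64 to -0.080 with 1 array left out. The count of members called lower (7) was 12 with equal array medians and 17 with the mean of all probe sets of a gene. It was 0 to 4 with 1 array left out. Members called higher (1) were 0 without probe sets whose names end in _s_at, _x_at or _a_at, which left 41 members. They were also 0 with any wild type array left out. Lower calls over all member probe sets were 0 to 14 with 1 wild type array left out, and higher ones 0 to 1. Higher ones were 0 without the _s_at, _x_at and _a_at probe sets. Members whose groups did not overlap were 19 to 37 on the lower side with 1 array left out and 2 to 7 on the higher side. Leaving out an array can keep or add such members but never remove one, and the same holds for all genes. These ranges therefore cannot show whether the separation depends on a single array. On the higher side, members whose groups did not overlap were 1 with equal medians or quantile normalization and 4 with the mean of probe sets. Matrix processing genes called lower were 27 and higher 0 with the mean of probe sets, 0 higher by the second brightest probe set, and 0 to 6 lower and 0 to 3 higher with 1 array left out. With 1 double mutant array left, its spread was assumed to be that of the wild type. The cause of these shifts was not tested.

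Replicate numbers are shared between groups, but nothing in the labels says that they pair embryos, and same-numbered arrays deviated together with r of 0.09 and 0.12 across probe sets. With a replicate block 1 member (Col12a1) was called lower and 0 higher, 4 member probe sets lower and 1 higher, and 2 matrix processing genes lower and 0 higher. Wild type replicate 3 is alone in its block, so the blocked differences equal those without that array (Col1a1 -0.50 in both). The block also leaves less data to estimate the spread. The cause of the lost calls was not tested. For the 8 called members, 48 of 87 single-gene checks kept the call and 39 lost it, and the direction reversed in 0. A reversal was not possible with 1 array left out or with the block, since the groups of these 8 genes did not overlap. Some other settings, such as trend and robust moderation, leave the difference itself unchanged. With 1 array left out the difference of Loxl1 was -1.37 to -0.90 and that of Mfap2 -0.63 to -0.57. For Col1a1, Col3a1 and Lum, not called, 5 of 33 checks gave a call, all for Lum. The choice of probe set by the wild type mean was added after the data were seen.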
